A study of Mus musculus with 2 samples.

Results

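The genes described here are 30 members of 2 stress programmes, 16 immediate early genes and 14 heat shock or chaperone genes, taken by symbol. The list was chosen with earlier results of these data known. All 30 were found among the 33456 genes that both tables list, and all 30 reached the minimum of 10 UMIs (unique molecular identifiers, counted RNA molecules) over both libraries. Cells were barcodes with at least 6172 UMIs in the embryoid body library (EB) or 6537 in the yolk sac library (YS) and at most 10% of UMIs from mitochondrial genes.

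Immediate early genes are transcribed within minutes of a stimulus, before any new protein is made, by factors that already sit near their promoters, and many of their products are transcription factors or inhibitors that end the response. Heat shock genes answer unfolded protein: heat shock factor 1 forms trimers, binds heat shock elements and drives chaperones such as the inducible Hsp70 proteins, while relatives of these chaperones are made at all times and fold new proteins. Both programmes are known to respond to enzymatic dissociation of tissue as well as to growth factors, heat and oxidants, so they are often read as a handling response in single-cell data.

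The EB library held cells of day 4 embryoid bodies grown in serum from C57BL/6 mouse embryonic stem cells, labelled as favouring hemangiogenic mesoderm, the source of blood and vessel cells. They were dissociated with Accutase for 5 minutes. The YS library held C57BL/6 yolk sac cells from equal numbers of E9.5 and E10.5 embryos, pooled. The tissue spent 30 minutes in collagenase (0.25%) held at 37 °C, and the cells were depleted of about 70% of cells carrying the erythroid antigen Ter119. Both suspensions were frozen at -80 °C in medium with 10% DMSO, thawed, sorted for live cells and loaded at 300 cells per microlitre. With 1 library a group, tissue, stage, enzyme, time of dissociation, sorting and library cannot be told apart, so the libraries are compared without a test or p-value.

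The rule kept 1878 EB cells with a median of 25547 UMIs and 775 YS cells with a median of 28461 UMIs. The median mitochondrial share was 2.85% in EB and 1.87% in YS, and 2 cell barcodes occurred in both. Barcodes ranked far below the cells gave the free RNA: on average such a droplet had 0.987% (EB) or 0.191% (YS) as many UMIs as the median cell. At that depth free RNA would account for 0.595% to 4.70% of the level of a member in EB cells and for 0.0953% to 0.366% in YS cells, the highest EB values being those of Fosb (2 UMIs) and Hspa1b (16 UMIs, 2.05%).

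Promoters are shown first because they show which members carry the letters of a heat shock element. A 2-unit element was searched as GAANNTTC or TTCNNGAA, each of which reads the same on both strands, within 250 bases upstream of RefSeq start sites (GRCm38.p6). It occurred in 12.8% of 32851 promoters, in 7 of the 10 heat shock members that the promoter table holds, and in 2 of 14 immediate early members, Jun and Egr2. The heat shock members searched without a match were Dnajb1, Bag3 and Hspa5. Here and below the percentage is of single promoters, whereas a member counts if any of its promoters matches. Some members, such as Hsph1 and Egr2, have several promoters, so these counts and the percentage are of unlike units. The 140 bases upstream of the start are given 5′ to 3′ for the inducible Hsp70 pair, for the small heat shock protein gene Hspb1 and for Jun, with the element in capitals. These are Hspa1a at chr17:34972157-34972296, minus strand, Hspa1b at chr17:34959239-34959378, minus strand, Hspb1 at chr5:135887779-135887918, plus strand, and Jun at chr4:95052223-95052362, minus strand.
Hspa1a: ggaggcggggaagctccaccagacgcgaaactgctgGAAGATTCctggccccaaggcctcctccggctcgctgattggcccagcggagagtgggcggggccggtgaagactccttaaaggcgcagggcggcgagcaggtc
Hspa1b: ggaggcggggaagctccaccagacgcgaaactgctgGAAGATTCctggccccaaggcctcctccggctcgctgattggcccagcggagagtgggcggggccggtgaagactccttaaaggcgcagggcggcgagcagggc
Hspb1: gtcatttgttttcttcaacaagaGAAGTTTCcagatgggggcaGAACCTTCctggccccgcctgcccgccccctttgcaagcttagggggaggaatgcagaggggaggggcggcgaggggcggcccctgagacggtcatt
Jun: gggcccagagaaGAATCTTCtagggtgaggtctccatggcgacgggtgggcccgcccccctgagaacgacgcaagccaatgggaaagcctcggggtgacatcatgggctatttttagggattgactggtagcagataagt

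The Hspa1a and Hspa1b windows were identical at 139 of 140 positions, and the element began 104 bases before the start in both. Hspb1 held 2 elements, beginning 117 and 97 bases before its start, and Jun held 1 beginning at 128. A longer element of 3 units (GAANNTTCNNGAA or TTCNNGAANNTTC, each of which contains the shorter one) occurred in 0.466% of promoters and in Hspd1 and Hspe1, the mitochondrial chaperonin genes, among the members. The windows of these neighbours overlap, and their matches to the longer and the shorter element are the same bases. That stretch is counted once for each gene, in the count of the shorter element above as well. The CArG box, the site of serum response factor, occurred in 1.47% of promoters and in Egr2 and Zfp36. The cAMP response element TGACGTCA occurred in 1.55% and in Btg2 and Dusp1. These searches covered the 24 members with a RefSeq promoter, 14 immediate early and 10 heat shock. Egr1, Ier2, Hmox1, Hspa8, Hsp90aa1 and Hsp90ab1 had none, so whether they carry any of these elements was not tested. A match is a string of letters, not a measured binding site. For a searched member, a missing match says only that the letters are not in the window.

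Of the 30 members, 16 were at least 2-fold higher in YS than in EB, 14 lay within 2-fold, and 0 were 2-fold higher in EB. Over all 15621 genes with at least 10 UMIs, 21.5% were 2-fold higher in YS and 18.5% were 2-fold higher in EB, and the median log2 ratio was 0.0017. The median log2 ratio was 1.24 over all members, 1.54 over the immediate early members (11 of 16 higher in YS) and 0.78 over the heat shock members (5 of 14). Levels below are UMIs summed over cells and scaled to the same library total (CPM), with 95% exact intervals that cover counting error only and not the spread between animals, cultures or libraries. Counts were not divided by transcript length, so a level is compared between groups and not between genes.

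**Figure D1:**
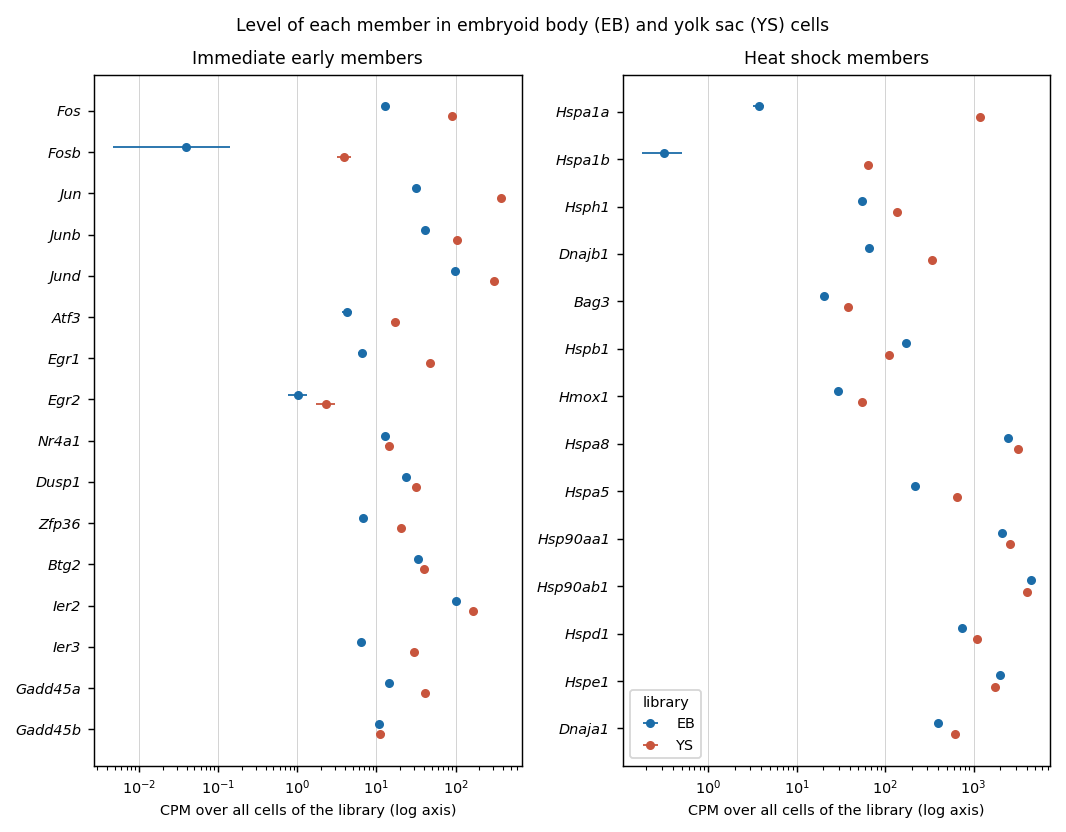
Level of each member over all EB cells (blue) and all YS cells (red), in CPM on a log axis, with 95% Poisson intervals of counting error (shorter than the point for most genes). The red point lies farthest to the right of the blue one for Hspa1a (3.73 against 1190 CPM) and to its left for Hspb1, Hsp90ab1 and Hspe1.

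The 6 members of the AP-1 family, whose Fos, Jun and Atf proteins pair to bind DNA, were all at least 2-fold higher in YS, with a median log2 ratio of 2.42. Jun (chr4:95049034-95052222) stood at 31.6 CPM (30.1 to 33.2) in EB and 378 (371 to 386) in YS, a ratio of 11.98 (11.4 to 12.6). Fos (chr12:85473890-85477273) stood at 12.8 CPM in EB and 90.7 in YS, 7.09-fold higher (6.50 to 7.76). Atf3, a repressor that joins Jun proteins under stress, stood at 4.24 and 17.0 CPM (4.02-fold, 3.40 to 4.76). The 2 Jun relatives with weaker transforming activity differed less. Jund, which many resting cells express, stood at 98.6 CPM in EB and 309 in YS (3.14-fold, 3.03 to 3.25), and Junb at 40.5 and 103 (2.54-fold, 2.40 to 2.70). Fosb had 2 UMIs in all EB cells against 94 in YS cells, a ratio of 98.5 with a counting interval of 26.5 to 825. With the cell cutoff at 20% of the 99th percentile of barcode totals the ratio was 191.

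Of the zinc finger and nuclear receptor factors, Egr1, a relay of growth factor signals, stood at 6.61 CPM in EB and 47.8 in YS (7.23-fold, 6.399 to 8.19). Egr2 was low in both, at 1.03 and 2.32 CPM (2.26-fold, 1.52 to 3.36, an interval that includes ratios under 2). Nr4a1, an orphan receptor induced by antigen and growth signals, stood at 12.8 and 14.4 CPM, and its interval of 0.987 to 1.29 included equality.

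The immediate early members Ier3, Zfp36, Ier2, Dusp1 and Btg2 divided at the 2-fold mark. Ier3, which protects cells from apoptosis, stood at 6.47 CPM in EB and 30.1 in YS (4.65-fold, 4.07 to 5.31), and Zfp36, which binds and destroys AU-rich mRNAs, at 6.83 and 20.3 (2.98-fold, 2.59 to 3.43). Ier2, a nuclear protein, stood at 102 and 167 CPM (1.63-fold, 1.57 to 1.70). Dusp1, a phosphatase that switches off MAP kinases, stood at 23.4 and 31.3 CPM (1.34-fold, 1.22 to 1.47). Btg2, an antiproliferative gene that p53 also drives, stood at 33.7 and 39.8 CPM (1.18-fold, 1.09 to 1.28). Ier2, Dusp1 and Btg2 therefore lay within 2-fold.

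The growth arrest genes Gadd45a and Gadd45b differed from each other. Gadd45a stood at 14.5 CPM in EB and 41.2 in YS (2.84-fold, 2.58 to 3.13), while Gadd45b stood at 10.8 and 11.2 (1.04-fold, 0.895 to 1.20). Without the 153 erythroid-like YS cells (19.7% of YS cells) the Gadd45a ratio was 1.09, at 15.8 CPM in YS, while the ratios of Jun, Fos and Egr1 were 15.2, 8.96 and 9.29.

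Hspa1a, the heat-inducible Hsp70 gene (chr17:34969190-34972156), differed most among the members. It had 189 UMIs in all EB cells, 3.73 CPM (3.22 to 4.30), and 28768 in YS cells, 1190 CPM (1176 to 1203), a ratio of 319 (277 to 370). Among the 15621 genes compared, 98 had a larger ratio. Its neighbour and near copy Hspa1b (chr17:34956436-34959238) stood at 0.316 CPM in EB (16 UMIs) and 64.9 in YS (206-fold, 126 to 361). The transcripts of this pair are so alike that the division of reads between them is uncertain; summed, the pair stood at 4.04 and 1254 CPM (310-fold, 270 to 358).

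The co-chaperones of Hsp70 followed at smaller ratios. Dnajb1, which delivers unfolded protein to Hsp70, stood at 66.5 CPM in EB and 343 in YS (5.16-fold, 4.96 to 5.37). Hsph1, a nucleotide exchange factor, stood at 54.6 and 135 CPM (2.47-fold, 2.35 to 2.60). Bag3, which links Hsp70 to autophagy, stood at 20.3 and 38.5 CPM (1.89-fold, 1.73 to 2.07). Hmox1, the heme-degrading enzyme heme oxygenase 1, which also answers oxidants through NRF2, stood at 29.4 and 55.3 CPM (1.88-fold, 1.75 to 2.03). Without the erythroid-like cells Bag3 and Hmox1 also passed 2-fold, at 2.32 and 2.43. Hspb1, the small heat shock protein whose promoter carries 2 elements, went the other way, at 174 CPM in EB and 111 in YS, 1.57-fold higher in EB (1.51 to 1.64).

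Of the 7 housekeeping chaperones, Hspa5 alone was 2-fold higher in YS. Hspa5 encodes the Hsp70 of the endoplasmic reticulum, and it stood at 220 CPM in EB and 648 in YS (2.95-fold, 2.88 to 3.02). Hspa8, the constitutive cytosolic Hsp70, stood at 2481 and 3183 CPM (1.28-fold). The other cytosolic members were the Hsp90 genes Hsp90aa1 (2108 and 2564 CPM) and Hsp90ab1 (4439 and 4013 CPM) and the Hsp40 gene Dnaja1 (398 and 621 CPM). The chaperonin pair Hspd1 and Hspe1, divergent neighbours on chromosome 1, stood at 745 and 1108 CPM and at 2003 and 1751 CPM. Hsp90ab1 was 1.11-fold higher in EB, and without the erythroid-like cells 1.02-fold higher in YS, so its direction depended on them. Processed pseudogenes of Dnaja1, Hspd1 and Hspe1 are annotated in GENCODE M21, and reads shared with them make those 3 levels uncertain.

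Hspa1a had a UMI in 8.04% of EB cells and 87.0% of YS cells, and after every cell was thinned to 6000 UMIs in 2.77% and 74.97%. Among YS cells so thinned, 25.03% had 0 Hspa1a UMIs, the median was 4 and the highest was 83, whereas the highest EB cell had 2. Jun had a UMI in 15.8% of thinned EB cells and 55.6% of thinned YS cells, and Fos in 5.54% and 25.8%. Hmox1 and Nr4a1 went against their levels, with a UMI in fewer YS than EB cells before thinning (36.5% against 47.8% for Hmox1, 17.7% against 22.3% for Nr4a1), so no order is read from their shares. Hspa8, Hsp90aa1, Hsp90ab1, Hspd1 and Hspe1 had a UMI in at least 97.3% of thinned cells of either library. The ratio of variance to mean over thinned YS cells was highest for Hmox1 (11.8), Hspa1a (11.4), Hspb1 (7.18) and Jun (6.80), and in EB for Hspb1 (4.52) and Hspa8 (3.75).

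The cells were then divided into groups, clustered in each library without the members and without 2 lists of related genes, and named "-like" from marker genes. All 12 endothelial markers were at least 2-fold higher in the YS endothelial-like group, as were all 12 of macrophages, of erythroid cells and of extraembryonic endoderm in theirs. Other YS names rested on fewer. Megakaryocyte-like cells had 6 of 12, hematopoietic progenitor-like and mesenchymal and fibroblast-like cells 9 of 12, and smooth muscle-like cells 7 of 10. The EB library held 2 hemangiogenic progenitor-like groups, in which 5 and 10 of the 12 markers (Kdr, Tal1 and Lmo2 in both) were higher. The weakest name was granulocyte and mast cell-like, with 3 of 12 markers higher (Mpo, Prtn3 and Srgn) and 3 of 12 at 0 UMIs. In EB 2 groups and in YS 1 group had no name, and a YS group of 10 cells was left out. The share of erythroid-like cells in YS was set in part by the Ter119 sort.

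Across groups of at least 20 cells (13 in EB, 12 in YS), the levels of 3 members did not overlap between libraries. Over all genes compared, 0.807% had every YS group above every EB group and 1.65% the reverse. Hspa1a ranged over groups from 0.742 to 5.82 CPM in EB and from 126 to 1877 in YS. Hspa1b ranged from 0 to 0.755 CPM in EB and from 11.96 to 107 in YS, and Dnajb1 from 55.3 to 85.4 in EB and from 144 to 660 in YS. Every YS group, erythroid-like cells included, thus stood above every EB group for these 3 inducible chaperones. No immediate early member did so, since the lowest YS group of each stood below the highest EB group: Jun spanned 17.4 to 73.2 CPM over EB groups and 30.2 to 633 over YS groups.

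**Figure D2:**
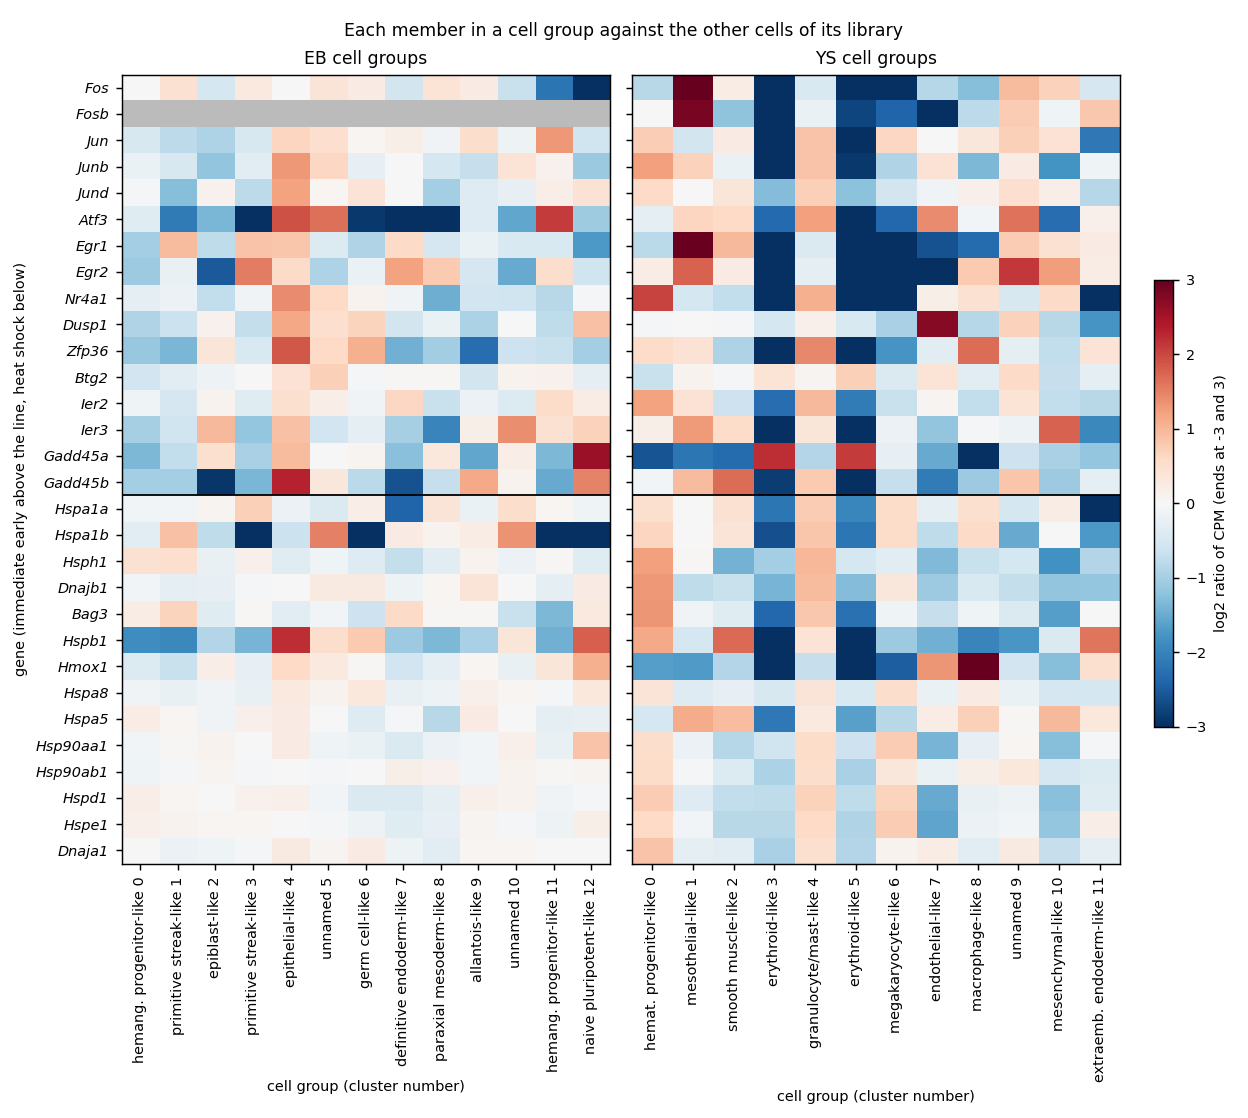
Each member (rows) in each cell group (columns) against the other cells of its library, as the log2 ratio of CPM, red for higher and blue for lower, with larger differences drawn at the ends of the scale; grey marks Fosb in EB, which had 2 UMIs. The 2 erythroid-like YS columns are blue except at Gadd45a and Btg2, the mesothelial-like column is red at Fos, Fosb and Egr1, and the EB epithelial-like column is red over 7 immediate early members and Hspb1.

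In YS the lowest summed levels of both programmes lay in the 2 erythroid-like groups of 92 and 61 cells. Some members were lowest elsewhere. Among them were Hspa1a in the extraembryonic endoderm-like, Fos in the megakaryocyte-like, and Hsp90aa1, Hspd1 and Hspe1 in the endothelial-like group. In the erythroid-like groups 13 and 12 of the 16 immediate early members were at least 2-fold lower than in the other YS cells, and 8 and 7 of the 14 heat shock members. Of all genes compared in these groups, 51.8% and 36.6% were 2-fold lower, so the heat shock count of the first group lay near the share of all genes. Jun stood at 30.2 and 34.9 CPM there, Fos at 10.1 and 6.73, Egr1 at 1.30 and 1.22, and Hspa1a at 301 and 322. Hspb1 and Hmox1 had 0 UMIs in the second group, at least 64.8-fold and 32.3-fold lower than in other cells against a floor of 3 UMIs. Of the 30 members only Gadd45a was 2-fold higher in these groups, at 121 CPM (4.64-fold, 4.09 to 5.27) and 144 CPM (4.26-fold, 3.66 to 4.93), where 2.83% and 3.79% of genes were 2-fold higher. Btg2 also stood above the other cells but within 2-fold, at 50.2 CPM (1.33-fold, 1.13 to 1.55) and 63.1 CPM (1.65-fold, 1.33 to 2.03). The 12 erythroid markers, globins among them, made up 318598 and 312357 CPM of these groups; the part of that in the lower CPM of other genes was not tested.

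The granulocyte and mast cell-like group (69 cells) had the highest sum of both programmes in YS. Its 16 immediate early members summed to 1947 CPM and its 7 inducible heat shock members to 3073 CPM, against 439 to 1908 and 542 to 2834 in the other groups. For the immediate early sum its counting interval (1894 to 2002) overlapped that of the unnamed group (1812 to 2008), so that lead is not settled. Hspa1a reached 1877 CPM and Jun 633 CPM there. At least 2-fold higher than in other YS cells were Zfp36 (46.5 CPM, 2.70-fold), Atf3 (34.96 CPM, 2.35-fold), Nr4a1 (26.9 CPM, 2.09-fold) and Hsph1 (244 CPM, 2.00-fold, 1.83 to 2.18), where 7.45% of all genes were. None of the 30 members was 2-fold lower, where 17.3% of genes were. After thinning, 5.80% of these cells had 0 Hspa1a UMIs and the median was 11, whereas 64.1% and 59.0% of erythroid-like cells had 0.

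The hematopoietic progenitor-like group (112 cells, Runx1, Cd34, Kit and Myb among its markers) had the most heat shock members 2-fold above the other cells, a lead it kept in 6 of 10 other settings (in the others a granulocyte and mast cell-like or an unnamed group led). Of the heat shock members 4 of 14 were 2-fold higher, where 6.46% of genes were: Bag3 at 75.2 CPM (2.51-fold, 2.19 to 2.88), Dnajb1 at 660 (2.45-fold, 2.34 to 2.56), Hsph1 at 251 (2.33-fold, 2.17 to 2.50) and Hspb1 at 199 (2.21-fold). Hspa1a stood at 1538 CPM there, and the group, 14.5% of YS cells, held 24.5% of all Hspa1a UMIs. Its 3 higher immediate early members were Nr4a1 at 37.1 CPM (4.09-fold, 3.30 to 5.08), Junb at 193 (2.34-fold) and Ier2 at 308 (2.29-fold). Fos and Egr1 were not among them, at 55.9 and 29.5 CPM against 98.8 and 52.1 in other cells. Gadd45a and Hmox1 were 2-fold lower, where 20.1% of genes were. The group's median of 40393 UMIs per cell was above the library's.

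The highest YS levels of Fos, Fosb and Egr1 lay in the mesothelial-like group (102 cells), but that of Egr2 (9.09 CPM) lay in the unnamed group. Of 12 mesothelial markers, 6 were higher in the mesothelial-like group, Upk3b, Krt8 and Krt18 among them, and 2 were at 0 UMIs. Fos stood at 439 CPM there and at 50.1 in the other YS cells (8.76-fold, 8.05 to 9.53). Egr1 stood at 218 CPM against 28.0 (7.77-fold, 6.91 to 8.74), Fosb at 17.1 against 2.35 (7.24-fold, 4.71 to 11.1), Egr2 at 6.35 against 1.85 (3.44-fold) and Ier3 at 63.1 against 26.2 (2.41-fold). These were 5 of 16 immediate early members, where 16.1% of genes were 2-fold higher. Jun did not follow, at 269 CPM against 391 in other cells, and Hspa1a stood at 1178 CPM against 1191. Hspa5 was its one higher heat shock member, at 1249 CPM (2.16-fold, 2.08 to 2.25). Gadd45a and Hmox1 were 2-fold lower, where 15% of genes were.

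Single members marked other YS groups. In the macrophage-like group (40 cells) Hmox1 stood at 618 CPM against 23.4 elsewhere (26.4-fold, 23.6 to 29.5) and Zfp36 at 57.9 (3.18-fold), where 10.8% of genes were 2-fold higher. There 5 immediate early members and Hspb1 were 2-fold lower, where 14.9% of genes were. In the endothelial-like group (48 cells, 20.8% of genes 2-fold higher) Dusp1 stood at 176 CPM against 26.7 (6.59-fold, 5.42 to 7.97), with Atf3 at 43.1 and Hmox1 at 132 CPM. In that group 4 immediate early members (Egr1, Ier3, Gadd45a and Gadd45b) and 6 of 14 heat shock members were 2-fold lower, where 10.4% of genes were, among them Hsp90aa1 at 996 CPM and the chaperonin pair Hspd1 and Hspe1 at 397 and 592. Its cells were the shallowest of the groups, with a median of 13184.5 UMIs and 2.97% mitochondrial UMIs.

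In the smooth muscle-like group (94 cells, 20% of genes 2-fold higher) Hspb1 stood at 298 CPM (3.24-fold, 2.97 to 3.54) and Gadd45b at 29.98 (3.21-fold), while Fosb, Gadd45a and Hsph1 were 2-fold lower, where 12.9% of genes were. In the mesenchymal and fibroblast-like group (30 cells) Ier3 stood at 97.4 CPM (3.42-fold, 2.55 to 4.51), where 21.5% of genes were 2-fold higher. Egr2 was also called higher in that group, at 5.31 CPM, but on fewer than 10 UMIs. There 3 immediate early and 7 heat shock members were 2-fold lower, where 10.1% of genes were. The unnamed YS group (31 cells) had Atf3 at 49.3 CPM (3.09-fold, 2.15 to 4.32) and Egr2 at 9.09, with 19.8% of genes 2-fold higher. The Egr2 level there rests on fewer than 10 UMIs. Hspa1b and Hspb1 were 2-fold lower in that group, with 9.65% of genes lower. The megakaryocyte-like group (59 cells) had Jun at 549 CPM and Hspa1a at 1669 CPM but Fos at 6.43 and Egr1 at 4.42. In it 7 of 16 immediate early members and 2 heat shock members were 2-fold lower, where 21.6% of genes were, and none of the 30 was 2-fold higher, where 5.26% of genes were. In the extraembryonic endoderm-like group (27 cells) Hspb1 stood at 318 CPM (3.05-fold, 2.66 to 3.49), where 19.2% of genes were 2-fold higher, and Hspa1a at 126, its lowest YS level. There 5 immediate early and 3 heat shock members were 2-fold lower, where 17.6% of genes were. That group had the highest mitochondrial share of the YS groups, a median of 5.01%.

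In EB the immediate early members varied more between groups than the housekeeping chaperones. Of the 28 members with a UMI in every EB group, 17 had a highest group over 3-fold above the lowest, Atf3 (47.0-fold) and Gadd45b (24.9-fold) first. The lowest groups stood at 0.340 CPM for Atf3 and 1.56 CPM for Gadd45b, so few UMIs underlie these 2 ratios. The lowest groups of Fos (1.37 CPM) and Hspa1a (0.742 CPM) were also near 0. The part of counting error in the spread of such low members was not tested. Under 2-fold were 6, namely Dnajb1 and the 5 housekeeping members Hspa8, Hsp90ab1, Hspd1, Hspe1 and Dnaja1. The 7 housekeeping chaperones summed to between 11410 and 15025 CPM over the 13 groups, against 8390 to 18908 over the 12 YS groups. None of the 7 passed 2-fold in any EB group. The immediate early sum ranged from 275 to 729 CPM in EB and from 439 to 1947 in YS. The inducible sum ranged from 226 to 770 CPM in EB and from 542 to 3073 in YS.

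The EB epithelial-like group (153 cells, Krt19, Sfn and Cldn4 among its markers) had the highest immediate early sum of that library, 729 CPM. Of the 15 immediate early members with at least 10 UMIs in EB, 7 were 2-fold higher there, where 6.49% of all genes were. They were Gadd45b at 38.9 CPM (4.93-fold, 4.11 to 5.89), Atf3 at 12.7 (3.78-fold, 2.76 to 5.11), Zfp36 at 19.7 (3.61-fold, 2.82 to 4.59), Nr4a1 at 29.3, Junb at 87.7, Jund at 203 and Dusp1 at 46.6. None of the 30 was 2-fold lower, where 7.15% of genes were. Fos stood at 12.9 CPM there against 12.8 in the other EB cells. Of the heat shock members only Hspb1 was 2-fold higher, at 599 CPM against 130 (4.61-fold, 4.41 to 4.82), while Hspa1a stood at 3.33 against 3.77. The 770 CPM of its inducible sum was therefore mostly Hspb1.

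The EB naive pluripotent-like group (58 cells, Zfp42, Esrrb and Dppa5a among its markers) had Gadd45a at 76.6 CPM (6.04-fold, 4.898 to 7.40) and Gadd45b at 28.7 (2.79-fold). Hspb1 at 562 CPM (3.45-fold, 3.21 to 3.71) and Hmox1 at 59.5 (2.09-fold, 1.66 to 2.60) were its 2 higher heat shock members, where 12.2% of genes were 2-fold higher. Fos and Egr1 were near 0 in it, with 2 and 3 UMIs, and were 2-fold lower with Junb, Atf3 and Zfp36, where 11.2% of genes were. The smaller hemangiogenic progenitor-like group (86 cells, 6.87% of genes 2-fold higher) had Atf3 at 15.999 CPM (4.27-fold, 2.86 to 6.22) and Jun at 73.2 (2.46-fold, 2.06 to 2.91), each the highest EB value, with Fos at 2.91 CPM. In it 3 immediate early and 2 heat shock members were 2-fold lower, where 8.21% of genes were. Fos and Jun thus did not rank the EB groups alike.

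The other EB groups had few higher members. None was 2-fold higher in the larger hemangiogenic progenitor-like group (280 cells, 3.38% of genes higher), in the first primitive streak and nascent mesoderm-like group (218 cells, 2.6%), in the epiblast-like group (197 cells, 6.13%) or in the paraxial and posterior mesoderm-like group (125 cells, 4.28%). Egr2 was higher in the second primitive streak and nascent mesoderm-like group (2.56 CPM, 2.82% of genes higher) and in the definitive endoderm-like group (2.23 CPM, 7.97%). Zfp36 was higher in the germ cell-like group (13.3 CPM, 8.6%) and Gadd45b in the allantois and extraembryonic mesoderm-like group (22.3 CPM, 7.56%). The unnamed groups had Atf3 (10.9 CPM, 3.75%) and Ier3 (15.7 CPM, 3.08%) higher, and Hspa1b, which had 16 UMIs in all of EB.

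Members that were 2-fold lower in these EB groups were mostly Atf3, Zfp36, Gadd45a, Gadd45b and Hspb1. The larger hemangiogenic progenitor-like group had 5 immediate early and 1 heat shock member lower (10.6% of genes lower) and the paraxial and posterior mesoderm-like group the same counts (7.74%). The first primitive streak and nascent mesoderm-like group had 4 and 1 (12.1%), and the second 3 and 1 (8.55%). The definitive endoderm-like group had 4 and 2 (7.96%), Hspa1a among them at 0.742 CPM, and the epiblast-like group 4 and 0 (6.63%). The germ cell-like group had 1 and 0 (7.11%) and the allantois and extraembryonic mesoderm-like group 2 and 0 (7.94%). The unnamed groups had 0 (5.07%) and 2 immediate early members lower (7.15%).

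**Figure D3:**
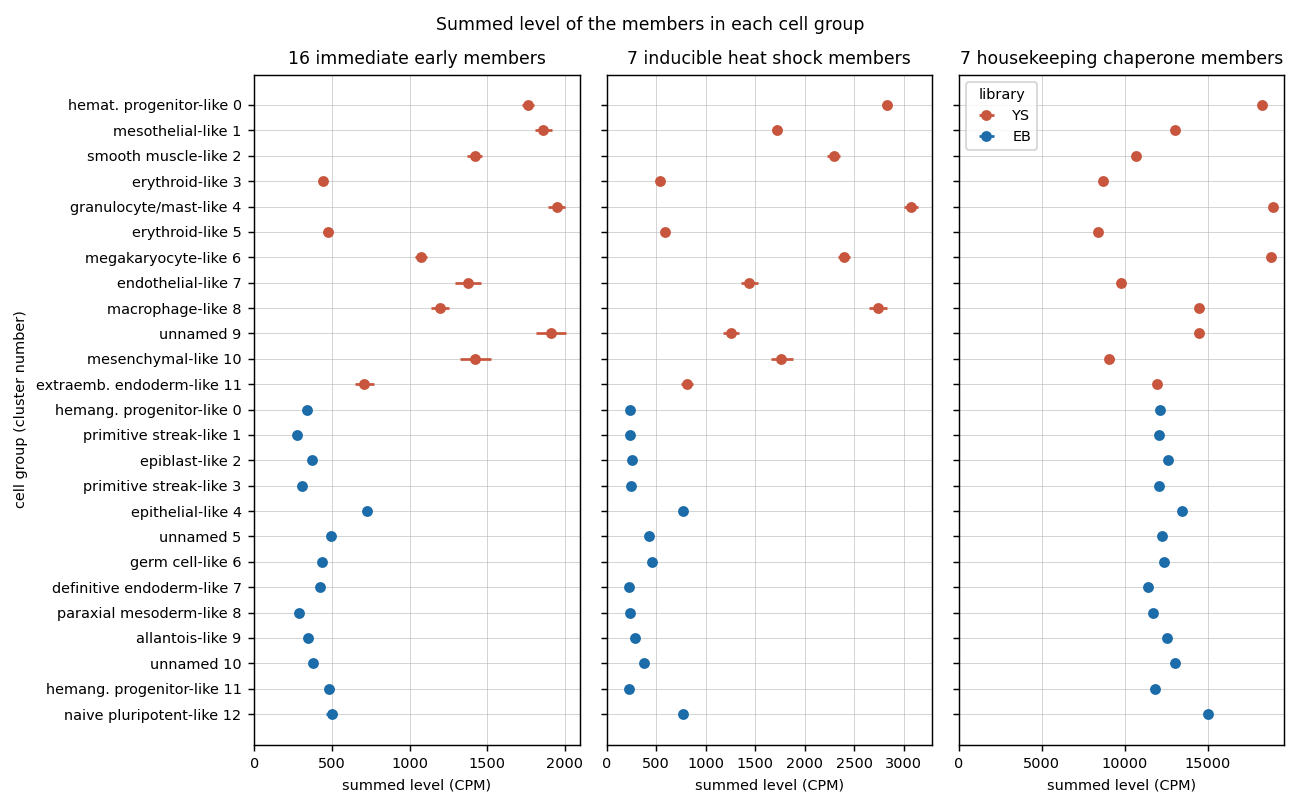
Summed level (CPM) of the 16 immediate early, 7 inducible heat shock and 7 housekeeping chaperone members in each cell group, red for YS and blue for EB, with 95% Poisson intervals of counting error. Except for the 2 erythroid-like groups (439 and 474 CPM) and the extraembryonic endoderm-like group (705 CPM), every YS group lies above the highest EB group (729 CPM) for the immediate early sum, and the housekeeping sums of the libraries overlap.

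To ask whether the programmes went together in single cells, each cell was thinned to 6000 UMIs, the members were summed, and ranks were centred on the median of the cell's group. In YS the 16 immediate early members and the 14 heat shock members had a correlation of 0.27 over 775 cells, and in EB of 0.031 over 1878 cells. These are descriptions over cells that share a library, not tests. In YS it was 0.42 with the 7 inducible and 0.092 with the 7 housekeeping members. The corresponding EB values were 0.098 and 0.014. In EB the median cell had 2 immediate early and 2 inducible UMIs, and in YS the medians were 6 and 8. Abundant members weigh most in these sums. Over all YS cells the housekeeping members made up 13888 of the 15825 CPM of the heat shock members. Hspa1a alone made up 1190 of the 1937 CPM of the inducible members.

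Depth and mitochondrial share were compared with the sums in the same way. In YS, with the cell's UMI total before thinning, the immediate early sum had a correlation of -0.12 and the inducible sum of -0.022. The housekeeping sum had 0.23 there and the sum of all heat shock members 0.18. The EB values were 0.038, 0.028, 0.16 and 0.16 in the same order. With the mitochondrial share the YS values were 0.030 for the immediate early, 0.069 for the inducible and -0.075 for the housekeeping sum. In EB the housekeeping sum fell with the mitochondrial share (-0.24), where the immediate early and inducible sums had -0.012 and -0.0045. The part of depth in the correlations beyond thinning was not tested.

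Within single YS groups the correlation of immediate early with inducible members was positive in 11 of 12, with a median of 0.44. It was 0.65 over 40 macrophage-like cells, 0.57 over 112 hematopoietic progenitor-like cells and 0.52 over 94 smooth muscle-like cells. It was 0.44 in both the granulocyte and mast cell-like and the megakaryocyte-like groups and 0.38 in the mesothelial-like group. In the erythroid-like groups it was 0.085 and -0.19, and 0.020 in the extraembryonic endoderm-like group, where the median cell had 1, 2 and 5 inducible UMIs. In EB 9 of 13 groups had a positive value, with a median of 0.093 and a range of -0.099 to 0.33.

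**Figure D4:**
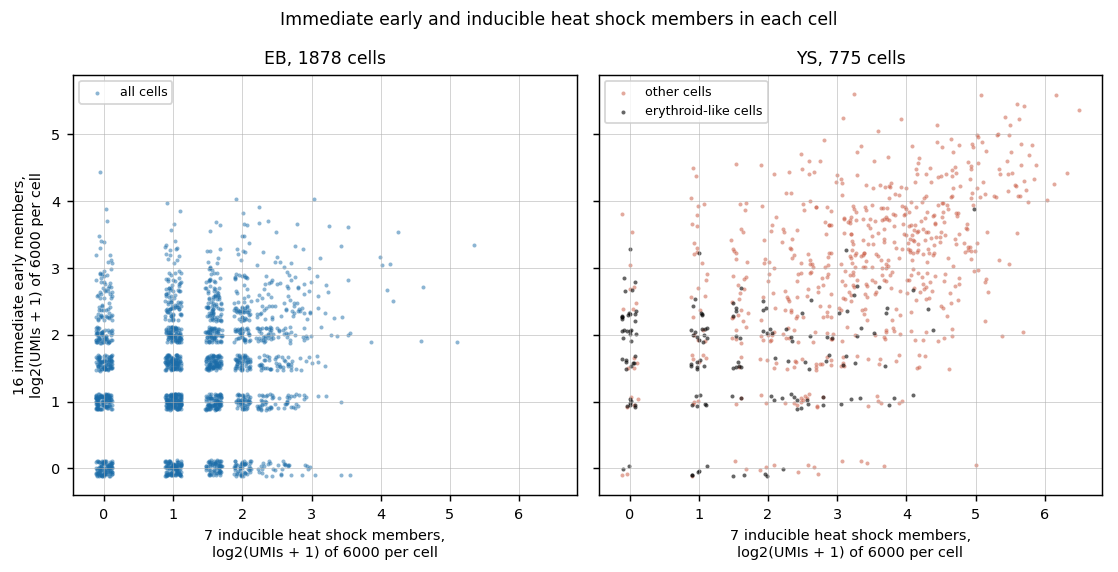
Each point is a cell thinned to 6000 UMIs, with the inducible heat shock sum on the horizontal and the immediate early sum on the vertical axis, both as log2(UMIs + 1) with a small random offset so that points do not cover each other. YS cells reach far higher on both axes than EB cells, and the erythroid-like cells (black) lie low on both.

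Among pairs of members, Jun and Hspa1a had the highest correlation in YS, 0.41 over 775 cells, across the 2 programmes. It was positive in all 12 YS groups, from 0.19 to 0.65 with a median of 0.38. In the granulocyte and mast cell-like group 56 of 69 thinned cells had a UMI of both, and in the first erythroid-like group 6 of 92. Fos and Hspa1a went together less: 0.094, and 0.15 with ranks taken within each group. Their correlation within groups ranged from -0.16 to 0.57, with 0.35 in the mesothelial-like group, where 75 of 102 cells had a Fos UMI. The difference between the Jun and Fos values was not tested.

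Fos and Egr1 had a correlation of 0.41 in YS, which was 0.28 with ranks taken within each group. Within the mesothelial-like group it was 0.39, and 51 of 102 cells had a UMI of both. The third pair in YS was Hspa1a with Dnajb1, at 0.32 and positive in all 12 groups. In EB the 3 highest pairs were Hsp90aa1 with Hsp90ab1 (0.22), with Hspd1 (0.19) and with Hspe1 (0.18), all housekeeping chaperones with a UMI in nearly every cell. Of 154 YS pairs of an immediate early with a heat shock member, each with a UMI in at least 10% of cells, 21 exceeded 0.1 and the median was 0.033. Of the 72 such EB pairs 1 did.

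**Figure D5:**
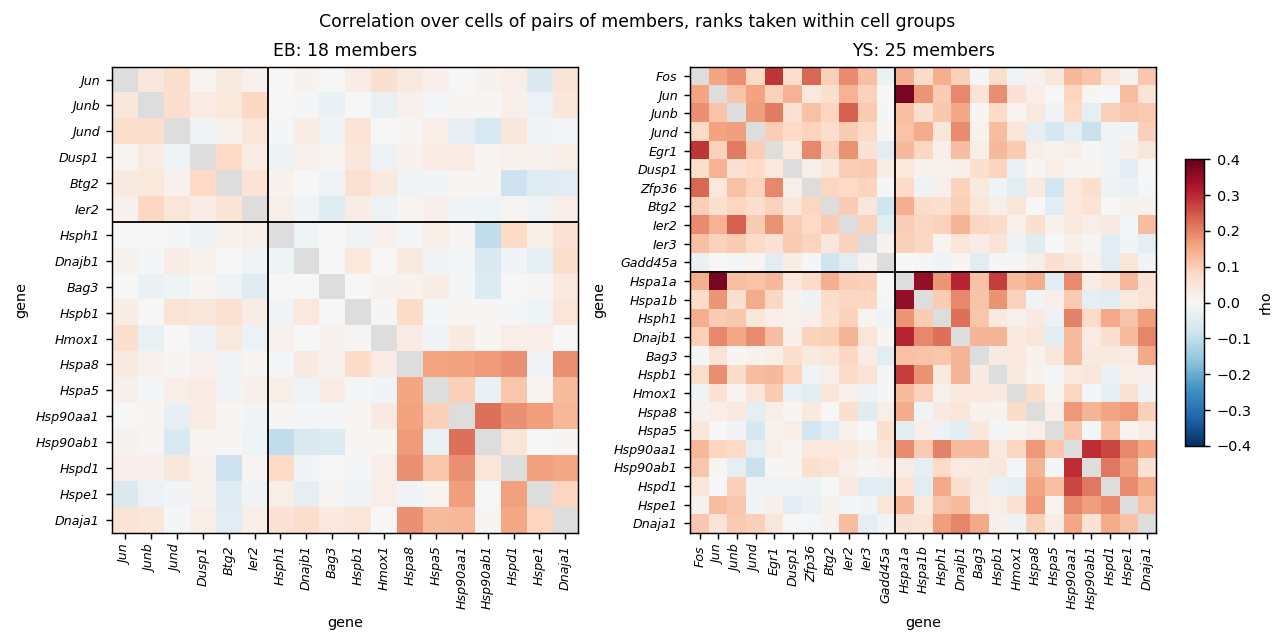
Correlation over thinned cells of each pair of members seen in at least 10% of cells (18 in EB, 25 in YS), with ranks taken within cell groups; black lines part immediate early (above, left) from heat shock members, and red is positive. In YS the darkest cell is Jun with Hspa1a, and in EB the 8 highest values are all between housekeeping chaperones at the lower right.

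Of genes outside the list, those whose level over YS cells was most like the immediate early sum included Phlda1 (0.24), Klf6 (0.24), Cyr61 (0.23) and Malat1 (0.17), among 3080 genes seen in at least 20% of thinned cells. For the heat shock sum they were Srsf2 (0.22), Ncl (0.20), Ahsa1 (0.19), Phlda1 (0.19) and Gm8730 (0.18). Klf6 and Cyr61 are themselves immediate early genes, and Ahsa1 is a co-chaperone of Hsp90. In EB the immediate early sum was most like Rap1b (0.18), Dusp6 (0.18), Etv2 (0.17), Krt8 (0.15) and Itm2b (0.15), and the heat shock sum most like Npm1 (0.33), Atp5b (0.30), Ncl (0.28), Anp32b (0.24) and Eif4a1 (0.24), among 2994 genes. These correlations are weak.

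Related pathways were counted from lists written by gene function. Of 25 other immediate early genes compared, 10 (40%) were 2-fold higher in YS and 2 in EB, against 21.5% and 18.5% of all genes, with Cebpb, a bZIP factor of stress and inflammation, at 17.1 CPM in EB and 133 in YS, and Id1, a target of BMP signals, at 476 in EB and 57.1 in YS. Of 28 other chaperones 6 were 2-fold higher in YS and 0 in EB. The highest ratios were those of the small heat shock gene Cryab (3.43 and 91.8 CPM) and the Hsp110 gene Hspa4l (1.91 and 15.46 CPM), and the lowest those of the heat shock factor gene Hsf2 (12.4 and 7.07 CPM) and the Hsp90 co-chaperone Fkbp4 (501 and 361 CPM). For the chaperones 6 of 28 is 21.4%, near the 21.5% of all genes that were 2-fold higher in YS. Hspa5 belongs to the unfolded protein response of the endoplasmic reticulum, of which 11 of 20 listed genes (55%) were 2-fold higher in YS and 0 in EB. Its stress factors Ddit3 (3.91 and 36.3 CPM) and Trib3 (2.33 and 33.0 CPM) had the highest ratios, and its chaperone Hyou1 stood at 11.0 and 8.35 CPM.

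Hmox1 shares its regulator NRF2 with 14 listed genes, of which 4 were 2-fold higher in YS (28.6%) and 2 in EB, near the 21.5% and 18.5% of all genes. Ftl1, a ferritin subunit, stood at 131 and 3762 CPM, and Prdx1, a peroxidase, at 2011 and 1003. Of 14 targets of p53, which also drives Gadd45a and Btg2, 0 were 2-fold higher in YS and 9 were in EB, where 18.5% of all genes were, among them Trp53inp1 (14.1 CPM in EB, 1.20 in YS) and Zmat3 (17.8 and 3.22). Median log2 ratios were 0.59 for the other immediate early genes, 0.083 for the other chaperones, 1.35 for the unfolded protein response, 0.079 for the NRF2 targets and -1.15 for the p53 targets.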

How the data were processed

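The deposited matrices hold unnormalized UMI counts of 2 libraries, and mm10 is the build per the submitters' processing notes. No aligner or counting program was given in the sources used here. The members, lists and marker genes were chosen with earlier results of these data known, and the rule for naming groups was written after the groups had been seen. Counts of cells that passed the rule were summed and scaled to CPM; each gene with at least 10 UMIs was compared, and called where its ratio was at least 2. A gene with 0 UMIs stands at a floor of 3 counts. Each library was clustered on its own (scanpy 1.11.5, 2000 variable genes, 30 components, 15 neighbours, Leiden resolution 1, leidenalg 0.10.2) without the members and 2 related lists. A name needed at least 3 markers 2-fold higher and seen in 25% of cells, a mean log2 difference of 0.5 with 20 CPM added, and 2 markers among the 10 genes of highest fold. Named genes were all members, in a group those with the 3 largest ratios of each programme and at least 10 UMIs, the 2 highest and 2 lowest of each related list with at least 30 UMIs in the higher library, the 5 most alike genes (1 of them in YS is not reported here) and the 3 highest pairs; other values in groups, and the pairs shown by group, were chosen after they were seen. Doublets were not removed: Scrublet marked 3 EB and 2 YS cells (0.160% and 0.258%, where 1.50% and 0.62% were expected), so it did not work here and most doublets may remain. Gene coordinates come from GENCODE M21 and promoters from RefSeq (GRCm38.p6), which held 24 of the 30 members. Intervals and calls were tried on simulated Poisson counts, which hold counting error alone. The trial therefore cannot show whether the intervals cover the spread between cells.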

Additional observations from a re-analysis of the deposited data

How the results depend on the processing

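No paired analysis was possible because each group has 1 library, and no result is replicated. Over cell filters, scalings, removal of free RNA and gene minimums, 15 to 18 members were 2-fold higher in YS and 0 in EB. Leaving the erythroid-like cells out of YS, chosen after seeing the data, gave 17, with Gadd45a no longer 2-fold higher; Bag3 and Hmox1 passed 2-fold there and with globin and mitochondrial genes out of the totals. The EB epithelial-like group led the immediate early members in all settings run. In YS the mesothelial-like group led them except against the median of the other groups, where an unnamed group led with 8 members. The leading group for heat shock members was less settled. In EB it had 1 member 2-fold higher, in place of 2, with the cell cutoff at 20% of the 99th percentile of barcode totals, with one of 1000 UMIs and with at most 5% mitochondrial UMIs, and over all 10 settings the naive pluripotent-like group led in 2, an epithelial-like group in 3, unnamed groups in 4 and a primitive streak and nascent mesoderm-like group in 1. In YS it had 2, in place of 4, at clustering resolution 1.5, and the hematopoietic progenitor-like group led in 6 of 10 settings, unnamed groups in 3 and a granulocyte and mast cell-like group in 1. The ratio of Fosb, which has 2 UMIs in EB, was 191 at the 20% cutoff. The correlation of the programmes was 0.076 in EB and 0.33 in YS without thinning, 0.098 and 0.42 with inducible members alone, 0.092 in YS with housekeeping members alone, and 0.45 in YS without centring on groups. In EB it was -0.0021 and -0.0029 under the other UMI minimums, so it has no settled sign. With ranks taken within groups, also chosen after seeing the data, it was 0.017 and 0.24. The cause of these shifts was not tested. No ratio of a called member changed direction.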
